A study of Mus musculus with 40 samples.

Results

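Livers of Nrf2-null mice given CDDO-Im were compared with livers of Nrf2-null mice given D3T, so that any difference between the treatments arose in mice lacking Nrf2. D3T is a dithiolethione and CDDO-Im is the imidazolide of a synthetic oleanane triterpenoid. The comparison used 8 of the 40 arrays of the series, 4 per treatment, chosen by genotype, compound and dose alone, and all 9695 genes above an expression minimum were tested. D3T was given at 300 µmol/kg and CDDO-Im at 30 µmol/kg, so each difference below is one between 2 treatments at unequal doses, not between compounds at a matched dose. All mice were males of 12 weeks on the C57BL/6J background, fed a purified AIN-76A diet. They were gavaged every other day, 3 times over 5 days, in a vehicle of Cremophor-EL, DMSO and PBS, and livers were taken 24 h after the last dose. The Nrf2-null mice carried a germline disruption of Nfe2l2 in every tissue, so effects that began in other organs cannot be told apart from those in the liver. Wild-type (Wt) mice given the same doses, 4 per treatment, and 4 Nrf2-null mice given vehicle served as references. Each array held the liver RNA of a single mouse. The animal numbers of both Nrf2-null treatment groups lay in one range, apart from that of the Nrf2-null vehicle mice.

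Nrf2 is a transcription factor that Keap1 marks for degradation in the cytosol. Electrophiles such as dithiolethiones and cyano enone triterpenoids modify cysteines of Keap1, Nrf2 then accumulates, and it binds antioxidant response elements with small Maf proteins to drive genes of conjugation, NADPH supply and export. In the liver, Nrf2 is also known to bear on lipid synthesis. Both compound classes have other protein targets, and expression that differs between them without Nrf2 lies outside this main route.

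Values are log2 GCRMA signals of 1 probe set per gene, and a difference is the mean with CDDO-Im minus the mean with D3T on that log2 scale. A gene was called when its limma p, adjusted by the Benjamini-Hochberg method over all genes tested, was under 0.05. Nfe2l2, the disrupted gene, read 2.85, 2.79, 2.84 and 2.87 in the D3T mice and 2.78, 3.09, 2.85 and 2.78 in the CDDO-Im mice, against 10.77 to 11.75 in the 20 Wt arrays, with no overlap between genotypes (exact permutation p = 0.029 for either treatment, the smallest that 4 against 4 can give). Hepatocyte markers averaged from 15.12 to 15.44 over the 8 arrays, and Alb reached 16.38. In bulk liver, fewer cells of a type and less RNA per cell cannot be told apart.

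Of the 8 arrays, D3T replicate 4 stood apart from its group, and CDDO-Im replicates 1 and 4 carried transcripts of another tissue. D3T replicate 4 correlated with the other 7 arrays at r from 0.954 to 0.964, whereas those 7 correlated with one another at 0.98 or more, and 988 genes lay at least 2-fold from the mean of the other 3 D3T mice. In that mouse the metallothionein Mt2 read 15.86 (7.55 to 10.8 in the other 3), the acute-phase protein Lcn2 14.46 (8.08 to 9.73), the asparagine synthetase Asns 9.89 (3.97 to 4.88) and the male-biased elongase Elovl3 5.32 (11.27 to 13.41). CDDO-Im replicates 1 and 4 carried transcripts of the exocrine pancreas. The pancreatic trypsinogen Prss2 read 13.01 and 14.77 in them, against 2.67 and 2.66 in CDDO-Im replicates 2 and 3, and 2.65 to 7.72 in the D3T mice. D3T replicate 1 held the value of 7.72, and D3T replicate 3 read 5.64. For the pancreatic gene Clps, D3T replicate 1 read 6.69, against 2.40 to 2.41 in the other D3T mice. It thus carried such transcripts at a lower level, and it was kept in the fit without CDDO-Im replicates 1 and 4. In CDDO-Im replicates 1 and 4, 34 and 98 genes lay at least 2-fold from their group, against 147 and 188 in replicates 2 and 3. Prss2, high only in replicates 1 and 4 of that group, did not pass the expression minimum. These counts are therefore no measure of how much pancreatic RNA was present. The main results are given with and without D3T replicate 4 and CDDO-Im replicates 1 and 4.

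Without Nrf2, single genes of several functions differed between the 2 treatments. Genes higher with CDDO-Im included the deiodinase Dio1, the taurine-synthesis enzyme Csad, the glutathione transferase Gstp1 and the chemokine Cxcl13, with rises from 1.73-fold for Gstp1 to 7.29-fold for Csad. Genes lower with CDDO-Im included the fetal albumin Afp, the apolipoprotein Apoa4 and the acetyl-CoA carboxylase Acaca, with log2 differences from -1.22 for Acaca to -2.20 for Apoa4. In all, 280 of 9695 genes were called (2.89%), of which 171 were higher (1.76%) and 109 lower (1.12%) with CDDO-Im. The median difference over all genes was -0.004. Among the called genes the median absolute difference was 0.63 and 68 differed by at least 2-fold, 49 higher and 19 lower. The 4 mice of one group did not overlap the 4 of the other for 217 of the called genes, and for 846 of all 9695 genes (8.73%).

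Without D3T replicate 4, 227 genes were called (2.34%), 93 higher (0.959%) and 134 lower (1.38%), so the share of calls that were higher went from 61.1% to 41%. Of the 280 genes, 125 were called again in the same direction and none changed sign, while 102 genes were called only without that mouse, 81 of them lower. The number of calls also turned on which arrays estimated the spread. It was 58 in a fit to the 20 Nrf2-null arrays, 54 of them among the 280, and 3 in a fit to the 8 arrays alone, which became 118 and 128 without D3T replicate 4. The median SD within groups was 0.204 over the Nrf2-null groups and 0.174 over the Wt groups. For D3T in Nrf2-null mice it was 0.199, or 0.123 without replicate 4. Nrf2-null vehicle mice had the highest value of all groups, 0.223. For CDDO-Im at 3, 10 and 30 µmol/kg in Nrf2-null mice the values were 0.151, 0.148 and 0.149. Without CDDO-Im replicates 1 and 4, which left 2 mice in that group, 44 genes were called, 42 of them among the 280. Leaving out D3T replicate 3 alone gave 153 calls, and leaving out CDDO-Im replicate 1, 2 or 4 alone gave 171, 125 and 116.

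**Figure D1:**
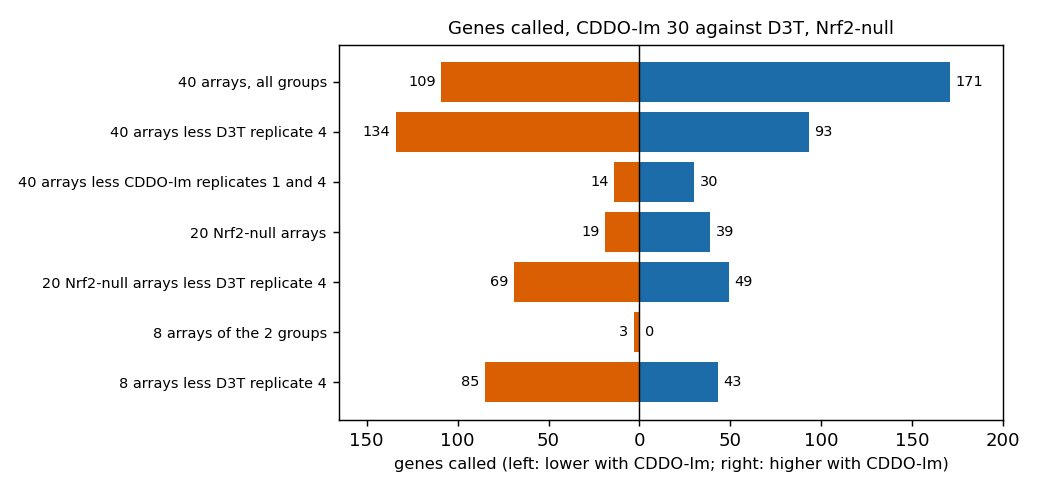
Genes called at an adjusted p under 0.05 for CDDO-Im 30 against D3T in Nrf2-null liver, lower with CDDO-Im to the left and higher to the right, for 7 choices of arrays in the fit. The fit to 40 arrays gave 109 lower and 171 higher, and without D3T replicate 4 it gave 134 lower and 93 higher.

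25 genes were called in each of 4 fits: all 40 arrays, 40 arrays without D3T replicate 4, 40 arrays without CDDO-Im replicates 1 and 4, and the 20 Nrf2-null arrays. This set was drawn from the results and is a description. In it 19 genes were higher and 6 lower with CDDO-Im, all 25 separated the 4 CDDO-Im mice from the 4 D3T mice, and the smallest difference was 0.37. Gria3, Ccl5 and Dntt, 3 of the 25 and 3 of 7 such genes among the 280, reached the expression minimum of log2 4 in only 1 of the 10 groups, the one in which they were high, so their values are given below as a description, with no test. The 19 were Gria3, Lama3, Cxcl13, Ccl5, Dio1, Fam25c, Alas2, Arhgap9, Cd48, Col5a3, Cyp4v3, Gstp1, Fahd2a, Serpina11, Acp5, Aspdh, Mettl26, Foxn3 and Atraid, and the 6 were Dntt, Afp, Serpina7, Kdf1, Gca and Rpa2.

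**Figure D2:**
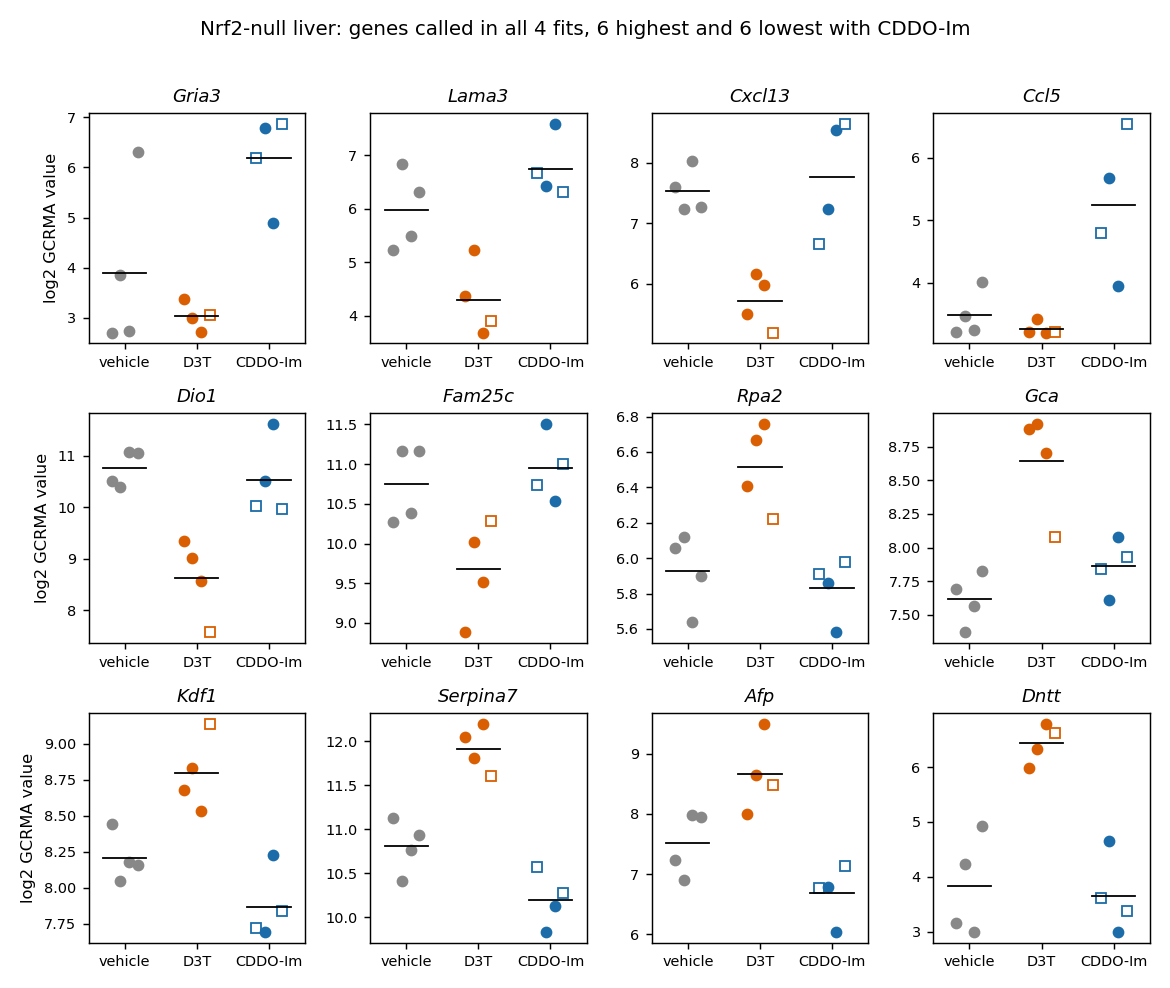
log2 GCRMA values of single Nrf2-null mice (points) given vehicle, D3T or CDDO-Im, with the mean of each group (line), for the 6 highest and 6 lowest of the 25 genes called in all 4 fits. Open squares mark D3T replicate 4 and CDDO-Im replicates 1 and 4, and in each panel the D3T and CDDO-Im mice do not overlap, although the nearest mice for Gca both round to 8.08.

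Among the genes higher with CDDO-Im, several encode metabolic enzymes of the hepatocyte. Dio1, the hepatic deiodinase that converts the prohormone thyroxine to active thyroid hormone, read 9.34, 9.01, 8.57 and 7.57 in the D3T mice and 10.02, 10.51, 11.62 and 9.96 in the CDDO-Im mice. All CDDO-Im mice were above all D3T mice, with a difference of 1.91 ± 0.32 (SE, n = 4 per group, adjusted p = 0.00098), and of 1.56 without D3T replicate 4 (adjusted p = 0.0038). Vehicle-treated Nrf2-null mice averaged 10.76 for Dio1, so the D3T group lay farther from vehicle than the CDDO-Im group did. Csad, the decarboxylase that makes the taurine precursor hypotaurine from cysteine sulfinate, read 9.63, 9.80, 9.60 and 11.38 with D3T and 13.09, 13.21, 12.42 and 13.16 with CDDO-Im. The difference was 2.87 ± 0.55 (adjusted p = 0.0039) and 3.29 without D3T replicate 4, the highest of the D3T mice. Dnase2a, a lysosomal endonuclease, had the same replicate as its highest D3T value, with 11.01, 11.37, 11.05 and 12.49 against 13.59, 13.62, 13.10 and 13.68 with CDDO-Im (2.02 ± 0.36, adjusted p = 0.0021). Csad and Dnase2a were not called without CDDO-Im replicates 1 and 4 (adjusted p = 0.064 and 0.052).

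Cyp8b1, the sterol hydroxylase that sets the share of cholic acid among bile acids, was 1.78 ± 0.38 higher with CDDO-Im (adjusted p = 0.0084), with values of 8.83 to 10.85 for D3T and 11.31 to 12.41 for CDDO-Im. It was not called in the fit to the 20 Nrf2-null arrays (adjusted p = 0.068). Etnppl, an ethanolamine-phosphate lyase, was higher by 1.68 ± 0.34 (adjusted p = 0.0051), but was not called in the 20 Nrf2-null arrays (adjusted p = 0.07), without CDDO-Im replicates 1 and 4 (adjusted p = 0.14) or with the mean of its probe sets. Elovl3 and the aldehyde oxidase Aox3 were called at differences of 3.26 and 1.72, yet without D3T replicate 4 they were 1.47 and 0.79 with adjusted p of 0.16 and 0.12. Keg1, an acyltransferase-like gene of male liver and kidney, was 1.58 higher and was called without that mouse (0.90, adjusted p = 0.044). It was not called without CDDO-Im replicate 2 (adjusted p = 0.07), without CDDO-Im replicates 1 and 4 (adjusted p = 0.085) or in the 20 Nrf2-null arrays (adjusted p = 0.14). Alas2, the erythroid form of the first heme-synthesis enzyme, was higher by 1.25 ± 0.22 (adjusted p = 0.0014), with 7.89 to 9.08 for D3T and 9.69 to 9.93 for CDDO-Im. The other red blood cell marker measured, Slc4a1, differed by -0.16 (adjusted p = 0.87).

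Other single genes higher with CDDO-Im have known roles outside hepatocyte metabolism. Cxcl13, the chemokine that draws B cells, read 5.51, 6.16, 5.99 and 5.20 with D3T against 6.66, 7.24, 8.54 and 8.64 with CDDO-Im (2.06 ± 0.44, adjusted p = 0.0079), while vehicle mice spanned 7.24 to 8.02. Cd48, a surface protein of leukocytes, was 1.19 ± 0.20 higher (adjusted p = 0.00098). Lama3, a laminin chain, was 2.45 ± 0.49 higher (adjusted p = 0.0049) and Col5a3, a collagen chain, 1.03 ± 0.16 higher (adjusted p = 0.00038). The list of fibrosis and matrix genes had none of 9 members called, with a median of 0.37 and of -0.12 without D3T replicate 4.

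Ccl5, a chemokine for T cells, read 3.22, 3.42, 3.21 and 3.22 with D3T and 4.79, 5.67, 3.95 and 6.54 with CDDO-Im. Gria3, a glutamate receptor subunit known mainly from neurons, read 3.37, 2.99, 2.72 and 3.05 with D3T and 6.19, 6.79, 4.89 and 6.87 with CDDO-Im. For both genes all D3T mice and 3 of 4 vehicle mice, as well as all Wt mice given D3T or CDDO-Im, were below log2 4, so the lower level lay near the floor of the array and the size of the difference is uncertain. CDDO-Im replicates 1 and 4, which carried pancreatic transcripts, read 6.19 and 6.87 for Gria3 and 4.79 and 6.54 for Ccl5.

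Dntt, the template-independent DNA polymerase of lymphocyte precursors, read 5.98, 6.33, 6.79 and 6.62 with D3T and 3.61, 4.65, 2.99 and 3.38 with CDDO-Im, without overlap. Vehicle mice averaged 3.83, close to the CDDO-Im mean of 3.66, and both means were under log2 4. Of 10 lymphocyte markers 2 were measured and neither was called, Ighm (1.81, adjusted p = 0.3) and Gzma (1.13, adjusted p = 0.073), and their mean level was 6.04 to 6.60 with CDDO-Im and 2.95 to 5.95 with D3T. Cd3e, Cd3g, Cd8a, Cd79a, Nkg7 and Ms4a1 were below the minimum, with at most 4.17 for Ms4a1.

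Afp, alpha-fetoprotein of the fetal liver, read 8.0, 8.64, 9.5 and 8.48 with D3T against 6.76, 6.78, 6.03 and 7.14 with CDDO-Im (-1.98 ± 0.34, adjusted p = 0.0011), and its 3 probe sets were called alike. Serpina7, the thyroxine-binding globulin, read 12.05, 11.81, 12.20 and 11.60 with D3T and 10.57, 9.83, 10.13 and 10.28 with CDDO-Im (-1.71 ± 0.35, adjusted p = 0.0051). It was also called in the fit to the 8 arrays alone (adjusted p = 0.034).

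Apoa4, an apolipoprotein of triglyceride-rich particles, was lower by 2.20 on the log2 scale in the 4 CDDO-Im mice, which read 10.59, 11.49, 11.54 and 11.52, than in the D3T mice, which read 13.03, 13.09, 13.58 and 14.24 (difference -2.20 ± 0.40, adjusted p = 0.0021). Of 14 measured apolipoprotein and assembly genes, 3 were lower and none higher: Apoa4, Apoc2 (-0.60) and the lipid transfer protein Mttp (-0.35). Only Apoa4 among these 3 was called without D3T replicate 4. Cyp4a31, a fatty acid omega-hydroxylase whose close Cyp4a relatives may share its probes, differed by -1.85 ± 0.38 (adjusted p = 0.0059), with 8.30 to 9.35 for D3T and 6.25 to 7.45 for CDDO-Im. Neither Apoa4 nor Cyp4a31 was called without CDDO-Im replicates 1 and 4 (adjusted p = 0.055 and 0.15). Kdf1 (-0.92), Gca (-0.78) and Rpa2 (-0.68), which encode an epithelial factor, a calcium-binding protein of granulocytes and a subunit of the replication protein A complex, were the smaller falls called in all 4 fits.

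Of the fatty acid synthesis genes, 3 were lower with CDDO-Im. Acaca, which makes malonyl-CoA, read 10.27, 9.67, 10.35 and 9.17 with D3T and 8.61, 8.84, 8.59 and 8.52 with CDDO-Im, a difference of -1.22 ± 0.22 (adjusted p = 0.0021), though its dimmer probe set was at -0.22 (adjusted p = 0.69). Elovl6, the elongase of palmitate, read 12.91, 12.12, 13.09 and 10.45 with D3T against 10.78, 10.69, 10.68 and 10.56 with CDDO-Im (-1.47 ± 0.36, adjusted p = 0.022). Pnpla3, a lipid-droplet lipase, read 8.59, 7.93, 8.75 and 3.77 against 5.54, 5.10, 4.42 and 4.32 (-2.41 ± 0.61, adjusted p = 0.025). For both Elovl6 and Pnpla3 the D3T group split, with replicate 4 below every CDDO-Im mouse and the other 3 above all of them. These were the 3 called of 17 measured members, all lower, and the median of the list was -0.14. Without CDDO-Im replicates 1 and 4 none of the 3 was called (adjusted p = 0.055 for Acaca, 0.14 for Elovl6 and 0.13 for Pnpla3).

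Without D3T replicate 4 the list median was -0.73 and 7 of the 17 members were lower, beside 1.38% of all genes. These were Acaca, Acacb, Fasn, Elovl6, Fads2, Pnpla3 and Gpam. Fasn, the fatty acid synthase, then differed by -1.67 (adjusted p = 0.0088), from -0.87 (adjusted p = 0.35) with that mouse. It read 10.54 in that mouse and 13.71, 13.54 and 13.88 in the other D3T mice, against 11.69 to 12.33 with CDDO-Im. Pnpla3 differed by -3.58 and Elovl6 by -2.03. In Wt mice, where 26.2% of all genes were lower with CDDO-Im, 10 of the 17 members were lower and none was higher. After each array was centred on its median 8 members were lower, beside 971 of all 9695 genes. Cholesterol synthesis had no called member among 17 measured and a median of 0. Without D3T replicate 4 its median was -0.57 and 5 members were lower, again beside 1.38% of all genes. They were Hmgcs1, Fdft1, Lss, Sc5d and Dhcr7, from -0.43 for Sc5d to -1.29 for Lss, the lanosterol synthase. In Wt mice 9 of the 17 were lower (4 after centring), beside the same Wt shares of all genes as above.

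**Figure D3:**
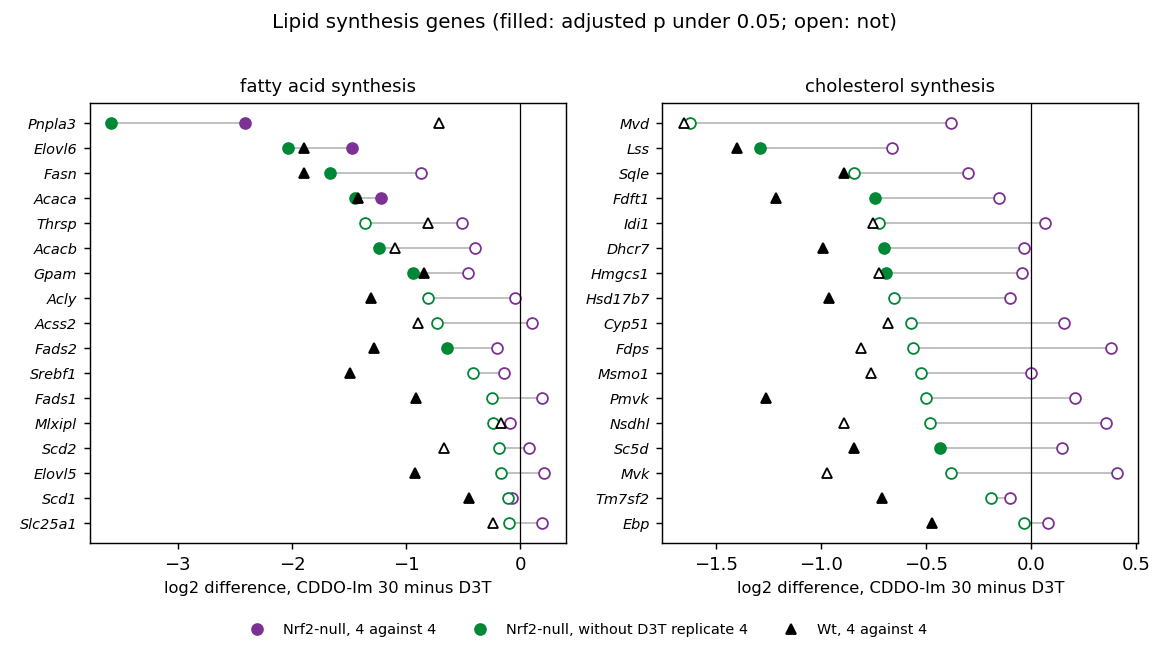
log2 difference, CDDO-Im 30 minus D3T, of each measured member of the fatty acid and cholesterol synthesis lists in Nrf2-null mice with all arrays (purple), in Nrf2-null mice without D3T replicate 4 (green) and in Wt mice (triangles), filled where the adjusted p was under 0.05. Leaving out D3T replicate 4 moved 3 called fatty acid synthesis genes to 7 and no called cholesterol synthesis gene to 5, all lower with CDDO-Im.

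Of 24 measured Nrf2 target detoxification genes, 2 were higher with CDDO-Im in Nrf2-null liver and none lower, beside 1.76% of all genes higher, and the median was 0.06 against -0.004 over all genes. Gstp1, the pi-class glutathione transferase, read 15.04, 15.16, 15.00 and 14.27 with D3T and 15.65, 15.65, 15.73 and 15.61 with CDDO-Im. Every CDDO-Im mouse was above every D3T mouse, by 0.79 ± 0.11 on average (adjusted p = 0.0002), and by 0.59 without D3T replicate 4 (adjusted p = 4.9e-05). The vehicle mean of Gstp1 was 15.51, with D3T at 14.87 and CDDO-Im at 15.66, and transcripts of its near-identical paralog Gstp2 may contribute to this probe set. Ephx1, the microsomal epoxide hydrolase, was higher by 0.51 ± 0.15 (adjusted p = 0.045) but not without that mouse (adjusted p = 0.088).

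The 12 Nrf2 target and lipid genes that the study followed singly besides Nfe2l2 gave no call in the Nrf2-null comparison with all arrays. Without D3T replicate 4, Lss alone among them was called (-1.29, adjusted p = 0.0044). Nqo1, the quinone reductase, read 2.99, 3.10, 4.14 and 4.72 with D3T and 3.22, 3.74, 3.17 and 3.28 with CDDO-Im, mostly under log2 4, and the 95% interval of its difference ran from -1.03 to 0.26. For Gstm1 the interval was -0.54 to 0.36, for Cbr1 -0.55 to 0.45, for Gsta2 -0.63 to 0.79 and for the exporter Abcc4 -0.26 to 0.96, so differences of up to those sizes were not excluded. In Wt mice Nqo1 differed by 1.55 (adjusted p = 0.00044) and Abcc4 by 1.72 (adjusted p = 7.8e-05), and the genotype difference was called for both (adjusted p = 0.0044 and 0.027). The carbonyl reductase Cbr3 was at 3.50 to 4.21 in all 8 Nrf2-null arrays and at 4.50 to 6.55 for D3T against 9.41 to 10.91 for CDDO-Im in Wt mice.

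The 250 bases before the RefSeq transcription start are shown for Gstp1, the detoxification gene that differed without Nrf2, and for the lipogenic genes Fasn, Elovl6 and Pnpla3 (build GRCm38.p6, 5′ to 3′ on the gene's strand). Capitals mark matches, on either strand, to 4 motifs: TCACNCCAC (a sterol regulatory element core), CACGTG (an E-box), CCAAT (bound by NF-Y) and TGANTCAGC (an AP-1-like element followed by GC, as in Maf recognition elements). Of 32851 RefSeq promoters searched over the same 250 bases, 1.05%, 6.02%, 33.8% and 1.02% held them. Matches to different motifs did not overlap, and in Fasn a CCAAT match on each strand overlapped.
Gstp1, chr19:4037913-4038162, minus strand: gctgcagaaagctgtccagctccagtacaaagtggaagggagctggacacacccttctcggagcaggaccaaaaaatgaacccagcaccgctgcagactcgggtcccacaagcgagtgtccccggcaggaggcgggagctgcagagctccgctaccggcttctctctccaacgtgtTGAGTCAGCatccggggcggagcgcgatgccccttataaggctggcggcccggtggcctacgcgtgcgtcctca
Fasn, chr11:120824548-120824797, minus strand: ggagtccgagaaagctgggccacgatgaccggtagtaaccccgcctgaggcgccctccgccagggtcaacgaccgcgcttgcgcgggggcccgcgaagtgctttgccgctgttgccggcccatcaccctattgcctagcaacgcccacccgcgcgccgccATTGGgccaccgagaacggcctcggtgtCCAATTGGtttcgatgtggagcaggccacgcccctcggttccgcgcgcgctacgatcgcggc
Elovl6, chr3:129532136-129532385, plus strand: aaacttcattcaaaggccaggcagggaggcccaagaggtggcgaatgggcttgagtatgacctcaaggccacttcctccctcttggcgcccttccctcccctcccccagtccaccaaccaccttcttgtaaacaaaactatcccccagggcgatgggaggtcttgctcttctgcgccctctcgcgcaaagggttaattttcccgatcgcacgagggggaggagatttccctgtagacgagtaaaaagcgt
Pnpla3, chr15:84167566-84167815, plus strand: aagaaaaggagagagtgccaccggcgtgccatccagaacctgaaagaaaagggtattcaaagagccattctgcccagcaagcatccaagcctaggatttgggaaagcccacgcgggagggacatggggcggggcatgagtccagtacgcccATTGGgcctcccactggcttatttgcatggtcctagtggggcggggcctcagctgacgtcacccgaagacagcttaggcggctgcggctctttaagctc
The Gstp1 window held the TGANTCAGC motif once, starting 74 bases before the transcription start. Fasn held CCAAT at 3 places and Pnpla3 at 1. Neither the TCACNCCAC core nor CACGTG was present in the 4 windows, and Elovl6 held none of the 4 motifs.

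Some markers of other cell types differed between the treatments. All 10 Kupffer cell and macrophage markers were measured, all 10 had positive differences, and 2 were called higher with CDDO-Im: Adgre1 (1.24, adjusted p = 0.04) and the complement subunit C1qa (1.18, adjusted p = 0.015). The mean level of the 10 ran from 9.08 to 9.59 in the CDDO-Im mice, from 8.50 to 9.03 in D3T replicates 1 to 3, and was 7.19 in D3T replicate 4. Without that mouse the median difference went from 0.95 to 0.47 and no marker was called. The antigen-presentation genes H2-Ab1 (1.80) and Cd74 (1.69), called higher with CDDO-Im among 22 measured genes of interferon response and antigen presentation, also lost their calls (adjusted p = 0.13 and 0.14). Cxcl13 and Cd48 were called with and without D3T replicate 4, and the part of macrophage content in these differences was not tested.

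Of the exocrine pancreas markers, 3 of 11 passed the expression minimum. Their mean level was 10.91 and 13.02 in CDDO-Im replicates 1 and 4 against 4.97 to 7.13 in the other 6 arrays, highest among these 6 in D3T replicate 1. Cela1 was called at 2.53 with all arrays (adjusted p = 0.011) and not without D3T replicate 4 (adjusted p = 0.057). Igha, the heavy chain of immunoglobulin A, was called at 2.26 (adjusted p = 0.019), with 7.84, 7.35, 5.36 and 8.24 for CDDO-Im against 4.59 to 5.42 for D3T, and was not called without CDDO-Im replicates 1 and 4 (adjusted p = 0.33). Of 4 neutrophil and monocyte markers, Lyz2 was higher (1.17, adjusted p = 0.014) but not called without D3T replicate 4 (0.78, adjusted p = 0.065), S100a8 was at -0.75, S100a9 at -0.68 and Ccr2 at 0.01, and the median was -0.33. The hepatocyte, stellate cell, endothelial, bile duct, adipocyte and mesothelial markers that were measured gave no call, and no skeletal muscle marker was measured.

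The acute phase genes were lower with CDDO-Im in 2 of 23 measured members, Lcn2 (-5.02 ± 1.35, adjusted p = 0.036) and Orm2 (-3.45 ± 0.98, adjusted p = 0.048). Lcn2 read 8.08, 8.18, 9.73 and 14.46 with D3T and 4.89, 5.64, 4.81 and 5.01 with CDDO-Im, and Orm2 read 9.62, 10.20, 10.60 and 13.61 against 7.24, 7.77, 7.56 and 7.66. For both genes all D3T mice lay above all CDDO-Im mice and replicate 4 lay above the other D3T mice. Without it the differences were -3.57 and -2.58 and neither was called (adjusted p = 0.15 and 0.17). The mean of the 23 genes was 13.80 in D3T replicate 4, 11.63 to 12.23 in the other D3T mice and 11.33 to 11.56 with CDDO-Im.

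**Figure D4:**
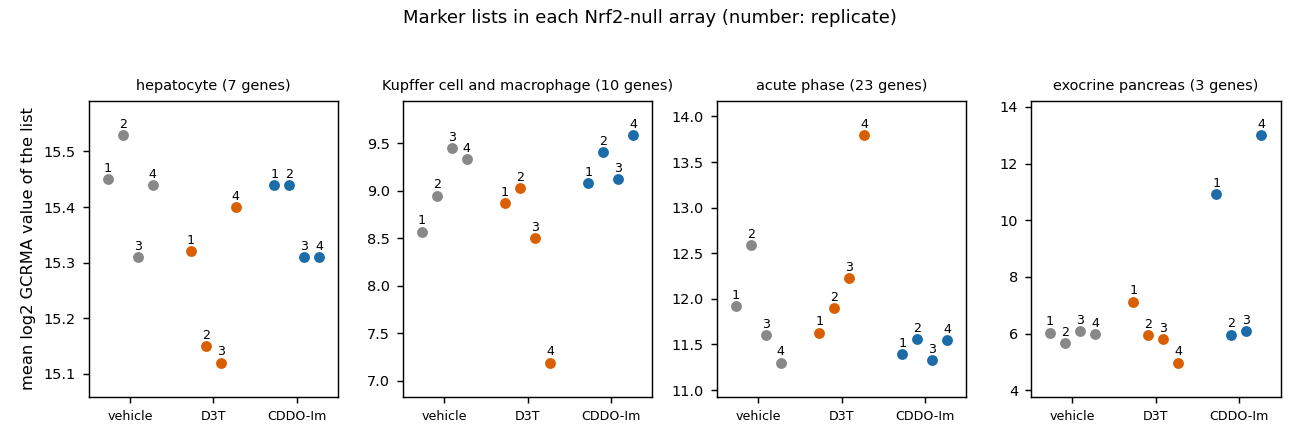
Mean log2 GCRMA value of 4 gene lists in each Nrf2-null array, with the replicate number above each point. D3T replicate 4 is lowest for the Kupffer cell list (7.19) and highest for the acute phase list (13.80), and CDDO-Im replicates 1 and 4 are highest for the exocrine pancreas list (10.91 and 13.02).

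Of 33 pathway lists, 13 held at least 1 called gene and 20 held none, and most counts below are of 1 or 2 members, to be read against 1.76% of all genes called higher and 1.12% lower. Bile acid synthesis and transport had 2 of 14 members higher, Cyp8b1 and Fgfr4 (0.63 ± 0.14, adjusted p = 0.0086), the receptor through which intestinal FGF15 restrains bile acid synthesis. The growth hormone axis had 2 of 12 higher, Igfals (0.83, adjusted p = 0.0092) and Igfbp3 (0.96, adjusted p = 0.04), the partners of IGF1 in serum. Without D3T replicate 4 Igfals was called (adjusted p = 0.041) and Igfbp3 was not (adjusted p = 0.061), and neither was called in the 20 Nrf2-null arrays or without CDDO-Im replicates 1 and 4. The respiratory chain had 2 of 24 higher, Ndufa1 (0.27) and Uqcrq (0.18), the complement and coagulation list 1 of 22, Proc (0.31), and the iron and heme list 1 of 10, the iron exporter Slc40a1 (0.47). Male-biased genes were higher in 2 of 9, Elovl3 and Keg1. PPARA targets had 1 of 25 lower, Cyp4a31, and the proteasome 1 of 25 lower, Psmb4 (-0.37), which was not called without D3T replicate 4 (adjusted p = 0.14). Fgfr4, Ndufa1, Uqcrq, Proc and Slc40a1 were called without D3T replicate 4 and not without CDDO-Im replicates 1 and 4.

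Lists without a call included endoplasmic reticulum chaperones (19 measured, median -0.03), cytosolic heat shock proteins (12, median -0.11), the conjugate exporters (7, median -0.02) and the integrated stress response (14, median -0.15). In Wt mice 16 of the 19 chaperones were higher with CDDO-Im, beside 4.45% of all genes. After centring 18 of the chaperones were higher, beside 1130 of all 9695 genes. The genotype difference was called and negative for 10 of the 19, beside 2.57% of all genes. NADPH supply, CAR and PXR cytochromes, aryl hydrocarbon receptor targets, other Srebf2 targets, lipid droplets, the study's lipid regulators, glucose metabolism, morning clock genes, p53 targets, the cell cycle, splicing, female-biased genes, urea cycle and amino acids, and fibrosis also gave no call. The evening clock genes had a median of -1.32 over 8 measured with no call. Dbp read 7.84, 7.14, 8.54 and 8.57 with D3T and 4.63, 5.05, 4.55 and 4.69 with CDDO-Im without overlap (-3.29 ± 1.24, adjusted p = 0.14), and vehicle mice ranged from 3.76 to 12.41 for Dbp. It was called in the fit to the 8 arrays alone. The labels and methods do not state the hour at which each mouse was killed.

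The same comparison in Wt mice, which shares no array with the Nrf2-null one, gave 2967 called genes (30.6%), 431 higher and 2536 lower with CDDO-Im, around a median of -0.161. After each array was centred on its median, 2101 were called and 53.8% of them were higher, against 14.5% before. The genotype difference was called for 1535 genes (15.8%), 1286 of them more positive in Nrf2-null mice, and for 1026 after centring, 45% of them more positive. Across genes the differences in the 2 genotypes correlated weakly (Pearson r = 0.15 over 9695 genes, which are not independent replicates).

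Of the 280 genes called in Nrf2-null mice, 60 were called in the same direction in Wt mice, 20 higher and 40 lower, which is 21.4% of the Nrf2-null calls and 2.02% of the Wt calls. After centring these were 65, with 39 higher and 26 lower, and without D3T replicate 4 they were 89, with 16 higher and 73 lower. Dio1 was 1.72 higher with CDDO-Im in Wt mice (adjusted p = 0.00015), with a genotype difference of 0.18 (adjusted p = 0.82). Aox1 (0.96 in Nrf2-null, 0.95 in Wt), the selenium-binding Selenbp1 (0.88 and 0.79) and Serpina11 (0.75 and 0.69) were higher in both genotypes. In Nrf2-null mice neither Aox1 nor Selenbp1 was called in the fit to the 20 Nrf2-null arrays. Aox1 was also not called without CDDO-Im replicates 1 and 4. Cyp4a31 (-1.85 and -2.49), Apoa4 (-2.20 and -1.70), Elovl6 (-1.47 and -1.89), Acaca (-1.22 and -1.42) and Afp (-1.98 and -1.17) were lower in both. None of the genotype differences of these 5 genes was called.

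21 genes were called in opposite directions, 19 of them higher with CDDO-Im in Nrf2-null and lower in Wt mice. After centring, 17 genes were called in opposite directions. Fgfr4 was 0.63 higher in Nrf2-null mice and -0.37 in Wt mice (genotype difference 1.00, adjusted p = 0.001), and Igfals 0.83 and -0.58 (1.41, adjusted p = 0.00057). Igfals was no longer called lower in Wt mice after centring, so its opposite calls depended on the uncentred arrays. Centring raised every Wt difference by the same amount, taking the Wt median from -0.161 to 0.026. The Wt falls of Fgfr4 (-0.37) and Aspdh (-0.43) were therefore also smaller after it, and their calls after centring are not given here. The genotype difference was called for 118 of the 280 genes and not for 162. Cxcl13 (2.06 in Nrf2-null and -0.04 in Wt, genotype difference adjusted p = 0.02), Cd48 (1.19 and 0.06, adjusted p = 0.0069) and Ces1g, a carboxylesterase (-1.35 and 0.65, adjusted p = 0.00057), were among those that differed by genotype. Csad (2.87 and 0.87) and Serpina7 (-1.71 and -0.37) were not (adjusted p = 0.076 and 0.056). Of the 25 genes called in all 4 fits, 6 were called in the same direction in Wt mice, 1 (Aspdh) in the opposite direction, and 14 were called in the genotype difference. The 6 include Dntt and the 14 include Gria3 and Ccl5, which are given above with no test, so these counts are a description.

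**Figure D5:**
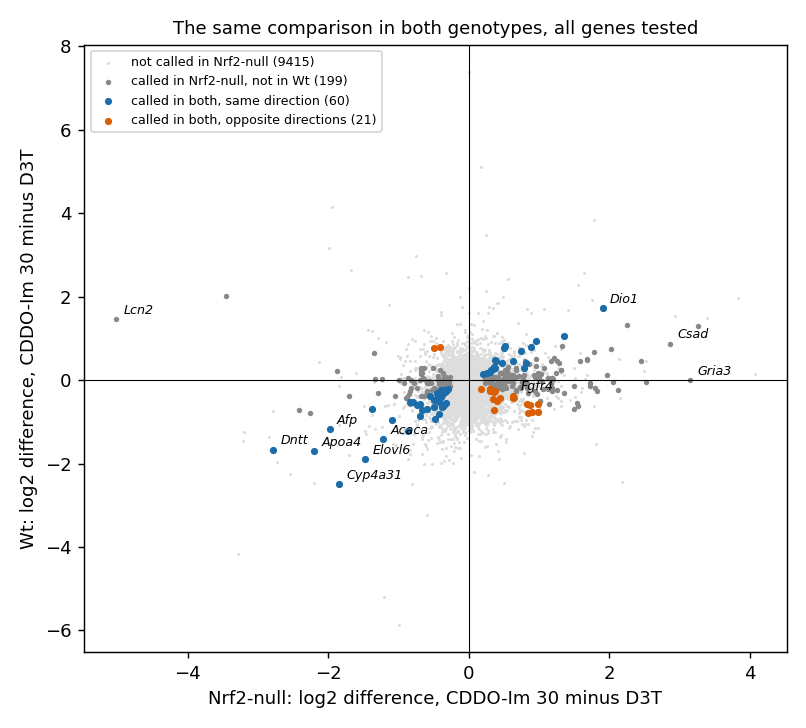
log2 difference, CDDO-Im 30 minus D3T, of 9695 genes in Nrf2-null mice (horizontal axis) and Wt mice (vertical axis). The 60 genes called in the same direction in both genotypes (blue) lie along the lower left and upper right, and the 21 called in opposite directions (orange) lie mostly at the lower right.

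Levels in vehicle-treated Nrf2-null mice were set beside both groups, with the limit that the vehicle mice carried a separate range of animal numbers and that both comparisons share them. Against vehicle, D3T gave 397 called genes (4.09%) and CDDO-Im 17 (0.175%). Csad averaged 12.47 with vehicle, 10.10 with D3T and 12.97 with CDDO-Im. Acaca averaged 8.58, 9.86 and 8.64, Apoa4 11.58, 13.49 and 11.29, and Serpina7 10.81, 11.91 and 10.20. These genes were named after their values were seen, and in them the D3T mean was the one farther from vehicle. In others the CDDO-Im mean was farther: Cyp4a31 averaged 8.34 with vehicle, 8.84 with D3T and 6.99 with CDDO-Im, and Ccl5 3.49, 3.27 and 5.24. Gria3 averaged 3.90 for vehicle, 3.03 for D3T and 6.19 for CDDO-Im, although vehicle replicate 4 read 6.30, and it averaged 3.07 and 2.91 in Nrf2-null mice given 10 and 3 µmol/kg of CDDO-Im.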

How the data were processed

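RNA of single livers was hybridised to Affymetrix mouse whole-genome arrays. The authors normalised the 40 arrays by GCRMA, and the deposited log2 values of 45037 probe sets were used as given. Platform annotation named 34945 probe sets with 1 symbol, 932 had several and 9160 had none listed. Probe sets with log2 of 4 or more on at least 3 arrays of a group were kept (18935), and the one of highest mean stood for each gene (9695). limma (version 3.58.1, R version 4.3.3) was fitted over 10 groups of 4 mice with trended, robust variances, and p was adjusted by Benjamini-Hochberg. This test was tested on simulated data.

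Genes were named by rule: the 12 largest rises and falls without overlap, up to 4 members per pathway list, genes the study measured, those leading in both genotypes and those leading in the genotype difference. Genes called in all 4 fits, genes shown for D3T replicate 4, the pancreatic transcripts and other list members were named after their values were seen. The members and lists were chosen with earlier results of these data known. The labels do not say whether replicate numbers pair mice, and the main fit treated the mice as unpaired. Mice of equal number gave r from -0.09 to 0.11 (1 of 4 pairs over 0.1) and those of unequal number -0.21 to 0.26. So few pairs cannot show whether mice were paired. The labels name separate mice, and 4 mice per group limit the precision. Promoter sequences are from RefSeq.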

Additional observations from a re-analysis of the deposited data

Results flagged for a closer look

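The difference between CDDO-Im and D3T itself differed by genotype, in the limma interaction term at an adjusted p under 0.05, for 26 of 69 genes examined, beside 15.8% of all genes. The 69 include genes named for their large genotype difference, so their share is no result. Given as the Nrf2-null minus the Wt difference on the log2 scale, it was positive for Cyp4a14 (4.87), Tcf24 (4.63), Gria3 (3.15), Cxcl13 (2.10), Lama3 (1.99), H2-Ab1 (1.98), Ccl5 (1.85), Igfals (1.41), Fgfr4 (1.00), Gstp1 (0.49), Uqcrq (0.40) and Ndufa1 (0.32). It was negative for Moxd1 (-7.38), Lcn2 (-6.49), Saa2 (-6.07), Orm2 (-5.46), Scara5 (-5.15), Cbr3 (-4.93), Cyb561 (-2.12), Ces1g (-2), Nqo1 (-1.94), Gstm3 (-1.50), Abcc4 (-1.37), Plscr2 (-1.36), Psmb4 (-0.54) and Mttp (-0.44). After each array was centred on its median, the genotype difference was no longer called for Gstp1, H2-Ab1, Uqcrq and Ndufa1. Moxd1 was at 2.15 in the Nrf2-null arrays, so its value is that of the Wt mice. Gria3 and Ccl5 had means under log2 4 in every group but Nrf2-null mice given 30 µmol/kg of CDDO-Im. Their values are therefore a description and no test.

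Single mice lay far from the other 3 of their group, by a gap to the nearest mouse that made up more of the group's whole range than Dixon's 95% limit, for 10 of 69 genes with D3T and 9 of 69 with CDDO-Im, where chance gives about 5 percent. With D3T, replicate 4 was the distant mouse for Ndufa1 (0.889), Csad (0.888), Cyp51 (0.864), Proc (0.857), Saa2 (0.853) and Pnpla3 (0.835), replicate 2 for Cbr3 (0.98), Ccl5 (0.952) and Ppara (0.872), and replicate 3 for Slc40a1 (0.871). With CDDO-Im, replicate 3 was distant for Tcf24 (0.963), Cyb561 (0.891), Selenbp1 (0.88), Csad (0.848) and Dnase2a (0.845), replicate 1 for Apoa4 (0.947) and Particl (0.902), replicate 4 for Cbr3 (0.905) and replicate 2 for Abcc4 (0.904). Ccl5 with D3T and Cbr3 in both groups lay near the floor of the array, so the gaps behind their ratios were small.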

How the results depend on the processing

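None of the 50 called among 163 named genes changed sign under the alternatives run, nor any of the 280 without D3T replicate 4, but the 280 calls in Nrf2-null mice depended on the arrays used. They became 160 with no expression minimum, 149 with a 1.5-fold minimum, 927 with array weights, 3 in a fit to the 8 arrays and 58 in a fit to the 20 Nrf2-null arrays. Chosen after seeing the data, the last 2 fits without D3T replicate 4 gave 128 and 118, and leaving out CDDO-Im replicates 1 and 4 gave 44. The exact Wilcoxon test gave 846 at an unadjusted p under 0.05 and 0 after adjustment. With 4 against 4 it can pass the adjustment only if a large share of all genes separate fully. Leaving out 1 mouse gave 116 to 379.

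The 2967 Wt calls became 1116 with the fold minimum, 0 by the adjusted Wilcoxon test and 2323 to 3072 without 1 mouse. The 1535 genotype differences became 973 with the fold minimum, 991 after further quantile normalization, 2557 with array weights, 911 without CDDO-Im replicates 1 and 4, and 1120 to 1743 without 1 mouse. The 60 genes called alike in both genotypes became 34 with no minimum, 18 with the fold minimum, 302 with weights, 10 without CDDO-Im replicates 1 and 4, 174 and 0 by the Wilcoxon test, and 29 to 89 without 1 mouse. The 21 opposite genes became 7, 4, 114, 4, 114 and 0, and 8 to 32 in the same order, and 36 with the mean of probe sets. Against vehicle, CDDO-Im gave 34 calls after centring and 32 without D3T replicate 4, and D3T gave 604 without it. A replicate block in the model gave counts of 292 in Nrf2-null mice and 2946 in Wt mice. Of the 50 named genes called, 32 were called without D3T replicate 4, 17 in the 20 Nrf2-null arrays and 13 without CDDO-Im replicates 1 and 4. The cause of these changes was not tested.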
